A study of Mus musculus with 5 samples.

Results

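Kinesin-2 motors are described here through the 5 mouse genes that encode them, Kif3a, Kif3b, Kif3c, Kifap3 and Kif17, which were taken by symbol from a table of 24062 genes. RNA of mitral valve leaflets was sequenced in 5 libraries, 2 titled wild type (WT) and 3 titled knockout (KO) for Ift88, a gene of the ciliary transport train. Every genotype label carries NfatC1Cre(+), a Cre driver of the endocardial lineage, so cells outside that lineage may keep an intact gene. The labels pair WT with Ift88f/f and KO with Ift88+/+, the opposite of the titles. The titles define the groups below, and age, sex, pooling of animals and separate origin of the libraries are not stated. P-values therefore reflect only how far these libraries differ from each other, and some of that spread may be technical.

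Kinesin-2 motors walk along microtubules toward their plus ends, and in a cilium they carry intraflagellar transport (IFT) trains, the cargo carriers of which IFT88 is a part, from the base to the tip. KIF3A and KIF3B are motor chains that pair with each other and bind KAP3, the non-motor subunit encoded by Kifap3. KIF3A can also pair with KIF3C, best known from neurons, and KIF17 pairs with itself in a motor described in neurons and sensory cilia. Endocardial and interstitial cells of developing valves carry primary cilia, and loss of KIF3A stops cilia from being built.

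Of these genes, Kif3a, Kif3b, Kif3c and Kifap3 had reads in every library and Kif17 had none in any. All 4 with reads stood higher in each KO library than in either WT one, with fold changes between 1.31 and 2.23, and none passed the test over all genes. Of all genes tested, 13.5% were placed like this. Kif3b had the widest spread, with WT replicate 1 far below the other libraries. With the trend of each library with the length of the longest transcript taken out, the groups of Kif3b and Kif3c overlapped. The log2 fold change of Kif3c was then near 0, a value that depends on the length taken for it.

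The libraries held between 23361414 and 53789026 counted reads. Ift88 had 7.54 and 19.8 CPM in the WT libraries against 3.0, 3.92 and 0.409 in the KO ones, an order that goes with the titles. CPM is the usual count scaled for depth, here with TMM factors. WT replicate 2 stood apart: the sum of 10 cardiomyocyte markers was 101.6 CPM there and between 26723 and 56255 in the other libraries. Without WT replicate 2, the log2 fold changes of Kif3a, Kif3b, Kif3c and Kifap3 given below became 0.64, 2.92, 0.93 and 0.30. The median of all genes was then 0.25. Single cardiomyocyte markers also differed among the other libraries. Myl2 was at 8687 and 4503 CPM in WT replicate 1 and KO replicate 1, and at 724 and 512 in KO replicates 2 and 3. Myl7 was at 556 and 149 CPM against 5081 and 6871. Myh7 and Pln split as Myl2 did, while Actc1 and Ttn did not. The part of this split in the kinesin-2 levels was not tested. All 9 interstitial cell markers and all 9 valve endothelial markers had reads, and the endothelial sum was 290 CPM in WT replicate 1 against 1668 to 2710 in the rest. In such bulk tissue, fewer cells of a type and less RNA per cell cannot be told apart.

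The sequences before the start sites of 4 of the genes are shown because Kif3a, Kif3b and Kif3c were detected together while Kif17 had no reads. Each is the 250 bases before the RefSeq start on the plus strand of GRCm38.p6, and all 5 genes matched 1 entry each. The intervals are chr11:53567119-53567368 for Kif3a, chr2:153291166-153291415 for Kif3b, chr12:3364882-3365131 for Kif3c and chr4:138262001-138262250 for Kif17, whose RefSeq start lies within the longer GENCODE gene given below. Capitals mark matches to GTTGCC or GTTGCT on either strand, which are like one side of the X-box that RFX factors of ciliary genes bind, and to an inverted pair of such sides. These patterns were chosen after the sequences had been read.
Kif3a: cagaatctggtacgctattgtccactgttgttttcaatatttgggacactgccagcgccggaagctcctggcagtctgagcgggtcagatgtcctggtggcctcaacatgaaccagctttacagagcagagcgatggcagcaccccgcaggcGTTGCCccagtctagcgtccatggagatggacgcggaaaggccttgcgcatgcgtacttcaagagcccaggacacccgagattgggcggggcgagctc
Kif3b: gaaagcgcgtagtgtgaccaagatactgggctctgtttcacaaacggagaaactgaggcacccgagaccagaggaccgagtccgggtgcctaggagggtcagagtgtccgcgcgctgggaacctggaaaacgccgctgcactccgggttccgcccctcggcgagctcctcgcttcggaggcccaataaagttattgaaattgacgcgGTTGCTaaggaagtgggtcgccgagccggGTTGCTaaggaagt
Kif3c: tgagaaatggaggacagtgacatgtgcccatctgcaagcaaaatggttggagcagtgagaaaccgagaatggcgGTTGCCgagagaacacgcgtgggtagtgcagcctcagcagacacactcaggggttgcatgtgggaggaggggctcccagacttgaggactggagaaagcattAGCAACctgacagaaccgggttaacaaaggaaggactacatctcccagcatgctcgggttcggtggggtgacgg
Kif17: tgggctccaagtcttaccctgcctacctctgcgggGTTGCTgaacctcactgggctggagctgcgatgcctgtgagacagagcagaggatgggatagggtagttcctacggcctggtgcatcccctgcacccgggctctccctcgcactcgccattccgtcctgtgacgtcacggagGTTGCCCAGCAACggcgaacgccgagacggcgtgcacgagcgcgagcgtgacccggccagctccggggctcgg

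Kif3a held 1 GTTGCC, 98 bases before the start, and Kif3b held 2 copies of GTTGCT, 43 and 14 bases before it. Kif3c held 1 GTTGCC and, on the minus strand, 1 GTTGCT. Kif17, the gene with no reads, was the one with the inverted pair GTTGCNNNGCAAC, as GTTGCCCAGCAAC starting 73 bases before the start. That run includes 1 match to GTTGCC and 1 to GTTGCT on the minus strand, and Kif17 has a further GTTGCT outside it. The window of Kifap3 had no match to these letters. Of 32851 windows of the same length in the table, 10.4% held GTTGCC, 12.2% held GTTGCT, 0.207% held GTTGCNNNGCAAC and 0.140% held GTTGCNNNNGCAAC, which none of the 5 genes had. The window of Kif17 was also rich in CpG, with 22 such steps as in Kif3b, against 15 in Kif3a, 9 in Kif3c, 7 in Kifap3 and a median of 6 over the table. These letters are a description of the windows and not evidence of a bound factor.

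Kif3a encodes the chain shared by both KIF3 motors. Its place is chromosome 11, 53567379 to 53601967 (GRCm38, plus strand), and no other annotated gene overlaps it. Its level was 18.7 and 15.9 CPM in WT replicates 1 and 2 and 33.0, 31.0 and 23.3 in KO replicates 1, 2 and 3. The groups did not overlap, and the lowest KO library, replicate 3, was 1.24 times the higher WT library. The WT libraries averaged 17.3 ± 1.95 (SD, n = 2), the KO libraries 29.1 ± 5.14 (SD, n = 3). The log2 fold change of KO against WT was 0.75 (SE 0.44, 95% interval -0.33 to 1.83), a 1.68-fold difference that did not pass the edgeR quasi-likelihood test (adjusted p = 0.847). Counting error, which leaves out the larger spread between libraries, put the upper bound of WT replicate 1 at 20.4 and the lower bound of KO replicate 3 at 21.4.

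Kif3b encodes the usual partner of KIF3A. It lies on chromosome 2, at 153291413 to 153333390 on the plus strand, with 1 annotated transcript of 5635 nt. WT replicate 1 had 64 reads, 2.44 CPM (95% exact Poisson interval 1.88 to 3.11), and WT replicate 2 had 811 reads, 14.1 CPM. The KO replicates 1, 2 and 3 were at 16.4, 17.2 and 21.8 CPM. WT replicate 2 was thus close to the KO libraries, and its upper counting bound of 15.1 lay above the lower bound of KO replicate 1, 15.0. The WT libraries differed 5.77-fold from each other, and the averages of 8.25 ± 8.22 in WT (SD, n = 2) and 18.5 ± 2.91 in KO (SD, n = 3) lay closer together than the WT libraries did. For Kif3b the fitted log2 fold change came to 1.16 (SE 0.84, interval -0.88 to 3.20) and did not pass (adjusted p = 0.881, edgeR quasi-likelihood test). Its size rested on WT replicate 1: it was 0.36 without that library and 2.92 without WT replicate 2.

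WT replicate 1, where Kif3b was low, had the lowest sums of endothelial, interstitial, mast cell, multiciliated, neuron, Schwann cell and epicardial markers. Its cardiomyocyte sum was the highest, at 56255 CPM. The sums of cycling cell markers (1038 CPM) and red blood cell markers (92.7 CPM, from Alas2 alone) were also highest there. Macrophage, melanocyte and smooth muscle markers were not lowest in that library. Low sums in that library were thus not limited to endothelial markers. Pecam1, an endothelial adhesion molecule, was at 50.3 CPM in WT replicate 1, at 557 in WT replicate 2 and at 322, 450 and 336 in KO. The whole endothelial list summed to 290 and 2410 CPM in WT and to 1668 to 2710 in KO. Of its 9 genes, 4 had all KO libraries above the WT ones. Interstitial markers summed to 2756 and 7817 in WT and 7681 to 11313 in KO, with 6 of 9 so placed, where 13.5% of all genes tested were and 11.1% had all KO libraries below, and no gene of either list was at 0 in all libraries. Their part in the level of Kif3b was not tested.

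Kif3c encodes the alternative partner of KIF3A. It lies on chromosome 12, at 3365132 to 3406494 on the plus strand, and its longest transcript of 6791 nt was the longest of the 5 genes. The level was 9.67 and 13.5 CPM in the WT libraries against 15.6, 20.9 and 18.8 in the KO ones. KO replicate 1 was the nearest to WT, at 1.16 times WT replicate 2, and the counting intervals of that pair overlapped. Means were 11.6 ± 2.68 (SD, n = 2) and 18.5 ± 2.66 (SD, n = 3), and the log2 fold change of 0.68 (SE 0.53, interval -0.60 to 1.96) did not pass (adjusted p = 0.890, edgeR quasi-likelihood test). It was 0.42 without WT replicate 1. The antisense genes 1110002L01Rik and Gm48512 share 2617 and 588 exon bases with Kif3c, and without strand marks in the kit, reads from those bases cannot be told apart. In the table, 1110002L01Rik had 249 and 63 reads in WT and 356, 642 and 30 in KO.

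Kifap3 encodes the subunit that links the motor to cargo. It lies on chromosome 1, at 163779583 to 163917109 on the plus strand. The level was 52.4 and 46.0 CPM in the WT libraries against 57.6, 59.4 and 76.2 in the KO ones. KO replicate 1 exceeded WT replicate 1 by a factor of only 1.10, and the counting intervals of these libraries overlapped. The means were 49.2 ± 4.54 (SD, n = 2) and 64.4 ± 10.2 (SD, n = 3). Its fitted log2 fold change of 0.39 (SE 0.35, interval -0.45 to 1.23) did not pass (adjusted p = 0.906, edgeR quasi-likelihood test). It was 0.25 without KO replicate 3, the highest library.

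Kif17, on chromosome 4 at 138250435 to 138301967 on the plus strand, had 0 reads in all 5 libraries. A count of 0 allows up to 3 reads, that is, between 0.0520 and 0.123 CPM depending on the library. This is a limit of counting error only. In WT replicate 1 the limit was 0.114 CPM. The neighbouring gene Sh2d5 shares 74 exon bases with Kif17, and it had 0 reads in WT replicate 1 and in KO replicates 2 and 3, but 2505 in WT replicate 2 and 178 in KO replicate 1. Of 10 neuron markers, Rbfox3 had no read and Snap25 and Syt1 stood at 0.849 CPM or less in every library, while Stmn2, Uchl1 and Gap43 had reads in each. Of 8 markers of multiciliated cells, Tekt1 and Dnah5 had no read and Foxj1 was at 0.0693 CPM in WT replicate 2 and 0 elsewhere. Tppp3 of the same list, which codes for a tubulin-binding protein, was present throughout, with 17.0 to 236 CPM, and Ccdc39 and Rsph1 had reads in some libraries, at most 3.77 and 2.87 CPM.

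**Figure D1:**
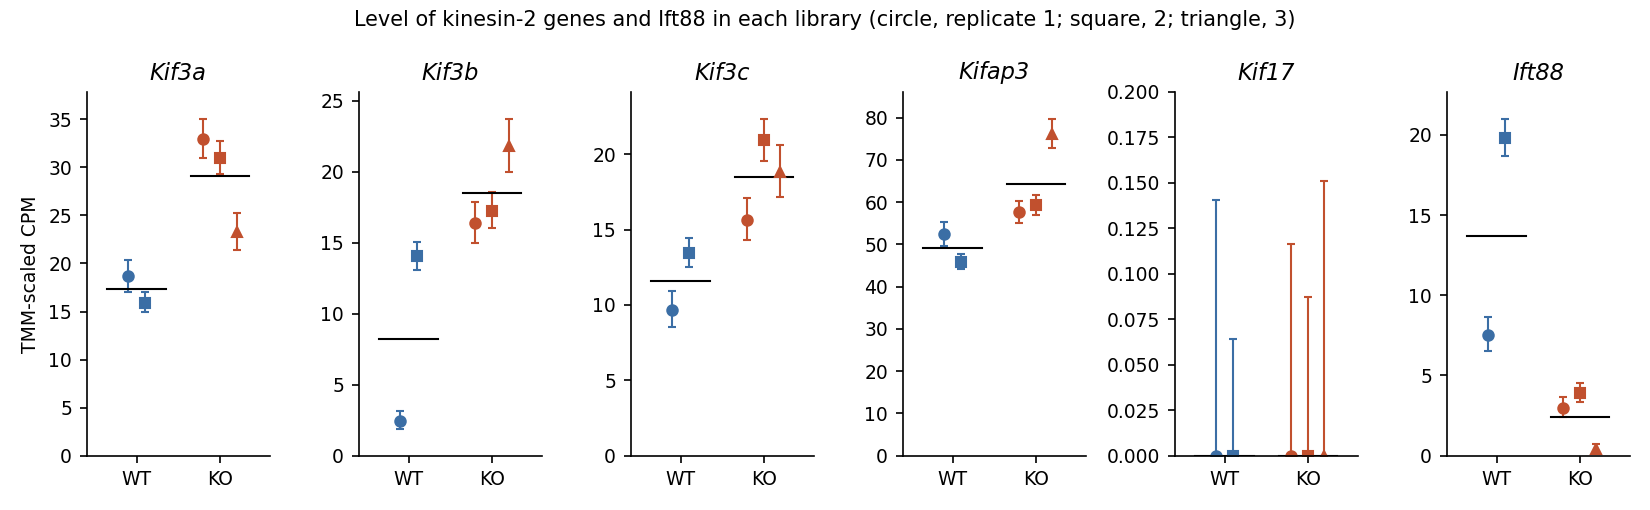
Level of the 5 kinesin-2 genes and of Ift88 by library (CPM, scaled with TMM), on linear axes from 0 that differ between panels. Points are single libraries (blue WT, red KO), bars are 95% exact Poisson intervals for counting error, and black lines are group means. KO libraries lie above both WT libraries for Kif3a, Kif3b, Kif3c and Kifap3, all libraries are at 0 for Kif17, and WT replicate 1 is far below the rest for Kif3b, at 2.44.

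All 4 genes with reads passed the filter on low counts, and Kif17 did not. Each had every KO library above both WT libraries, a placing shared by 13.5% of the 14244 genes tested, with 11.1% placed the other way. No gene of the table passed at an adjusted p under 0.05 in the edgeR quasi-likelihood test (0.0% of genes). At an unadjusted p under 0.05, 4.57% of genes were higher and 1.27% lower in KO, and 0 of the kinesin-2 genes were among them. DESeq2 called 2.41% of the genes to which it gave an adjusted p, its variant with shrunken fold changes 1.36%, edgeR's likelihood-ratio test 0.351% and limma-voom 0.0%. None called a kinesin-2 gene.

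**Figure D2:**
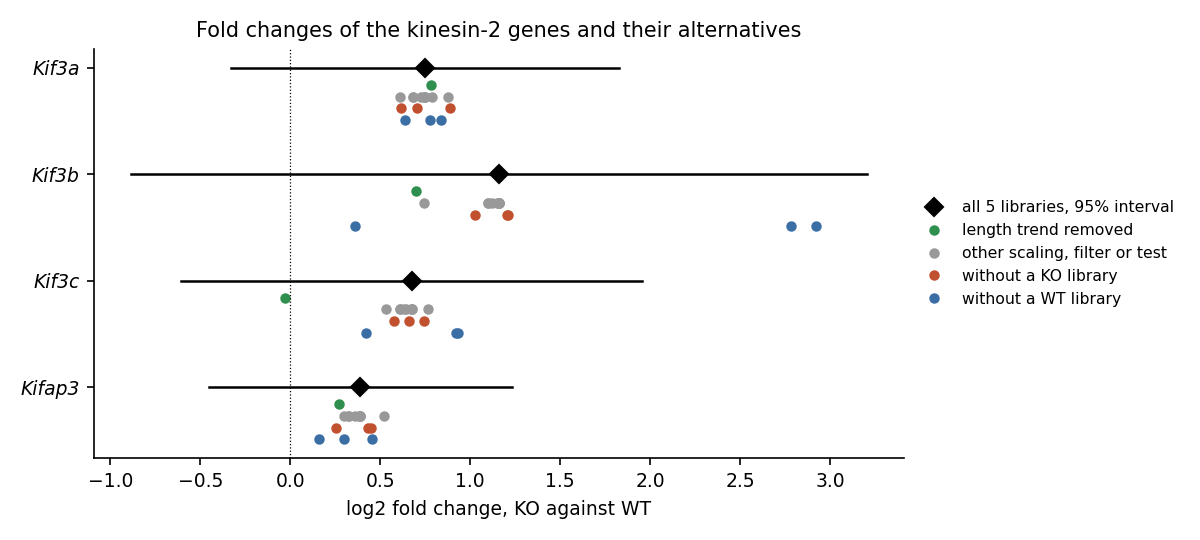
Log2 fold change of KO against WT for the 4 kinesin-2 genes with reads. Black diamonds with lines are the fit to 5 libraries with its 95% interval, and dots below them are alternative fits grouped by kind. Every interval spans 0, the dots of Kif3b spread from 0.36 to 2.92 as a WT library is left out, and the green dot of Kif3c, with the length trend removed, lies at -0.03.

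Levels leaned toward longer transcripts in the KO libraries and away from them in WT. At the length of Kif3c, 6791 nt, the trend of log2 level with length lay at -0.46 and -0.39 in WT replicates 1 and 2 and at 0.22, 0.52 and 0.11 in KO. At the length of Kif3a, 3161 nt, it lay between -0.02 and 0.02 in every library. These are lengths of the longest transcript. The median annotated transcript of Kif3c is 2962 nt, and at 2981 nt the trend lay between -0.04 and 0.05 in every library. What is removed from Kif3c thus depends on the length taken for it, and removal by median length was not run. With the trend removed the log2 fold changes were 0.78 for Kif3a, 0.70 for Kif3b, -0.03 for Kif3c and 0.27 for Kifap3, where the median of all genes was -0.04. Kif3a kept every KO library above both WT libraries, the lowest being 1.28 times the higher WT library. For Kifap3 that ratio was 1.01, and Kif3b and Kif3c overlapped, at 0.796 and 0.762. On these levels 11.1% of all genes had every KO library above both WT libraries.

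**Figure D3:**
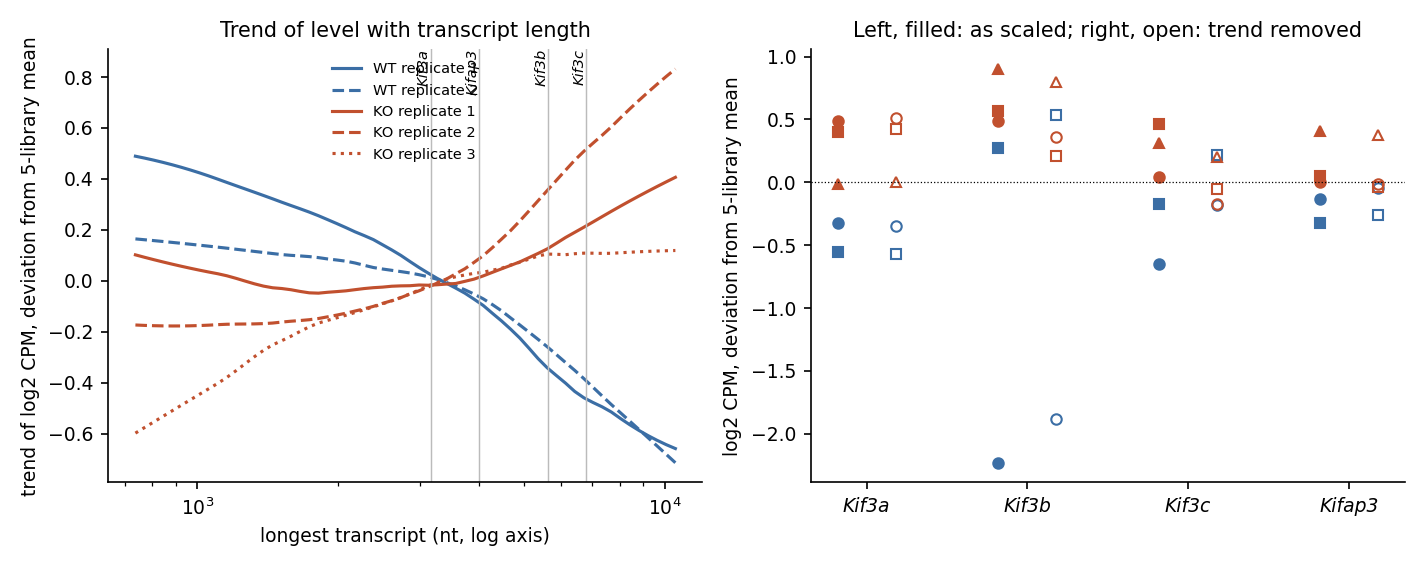
Left, trend of log2 CPM with the longest annotated transcript (nt, log axis) in each library, as deviation from the mean of 5 libraries, with grey lines at the kinesin-2 genes. Right, deviation of each gene in each library before (filled) and after (open) the trend was removed, blue for WT and red for KO, with circles, squares and triangles for replicates 1, 2 and 3. At the lengths of Kif3b and Kif3c the KO curves lie above the WT curves, and the open points of Kif3c mix the groups.

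Levels of different genes were compared per kilobase of the longest transcript. Kifap3 was highest, at 12.3 ± 1.13 CPM per kilobase in WT (SD, n = 2) and 16.04 ± 2.55 in KO (SD, n = 3). Kif3a followed at 5.48 ± 0.617 and 9.20 ± 1.63. Kif3b was at 1.46 ± 1.46 and 3.28 ± 0.516, and Kif3c at 1.70 ± 0.394 and 2.72 ± 0.392. Kifap3 exceeded Kif3a, and Kif3a exceeded both Kif3b and Kif3c, in every library. Kif3b and Kif3c did not differ beyond their spread: Kif3c was the higher in WT replicate 1 and KO replicate 2 and Kif3b in the other libraries. The length of Kif3c includes exon bases shared with antisense genes, which may affect this order. By the median length of annotated transcripts, which is 1489 nt for Kif3a, Kif3a was above Kifap3 in KO replicates 1 and 2, and Kif3c was above Kif3b in every library. Among 13590 genes tested with a known length, Kifap3 stood between percentiles 65.7 and 74.1 of level per kilobase and Kif3a between 50.4 and 63.7. Kif3c lay between percentiles 31.1 and 37.3, and Kif3b between 17.5 in WT replicate 1 and 43.2 in KO replicate 3.

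Partners of KIF3A can also be compared within a library, where scaling has no part. The trend with transcript length does not cancel between genes of unlike length, and it was left in these ratios. With that trend removed, the log2 fold change was 0.78 for Kif3a, 0.70 for Kif3b and -0.03 for Kif3c. Per kilobase, the ratio of Kif3b to Kif3a was 0.0731 (95% exact interval for counting error 0.0554 to 0.0950) for WT replicate 1, the lowest library, and 0.495 (0.450 to 0.545) for WT replicate 2. The KO libraries had 0.278, 0.312 and 0.525, of which replicates 1 and 2 lay between the WT values and replicate 3 just above them. Kif3c to Kif3a spanned a narrower range, with 0.241 and 0.393 in WT and 0.221, 0.314 and 0.377 in KO. Kif3c to Kif3b was 3.29 in WT replicate 1 and between 0.717 and 1.01 in the other libraries. By the longest transcript, the sum of both partners was below Kif3a in every library. That sum was at 0.314 and 0.888 of the level of Kif3a in WT and 0.499, 0.626 and 0.902 in KO. The length used for Kif3c, 6791 nt, includes the 2617 and 588 exon bases shared with antisense genes. How reads from those bases were counted is not known here, so per-kilobase values of Kif3c may be too low or too high.

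Kifap3 to Kif3a was 2.21 and 2.27 per kilobase in WT and 1.38, 1.51 and 2.58 in KO. KO replicates 1 and 2 were below both WT libraries and KO replicate 3 was above them. On the log2 scale of reads, with the length trend left in, KO minus WT was -0.36 for this ratio and 0.90 for Kif3b to Kif3a. It was -0.05 for Kif3c to Kif3a and -0.96 for Kif3c to Kif3b. Exact two-sided permutation tests gave p = 0.6, 0.6, 0.8 and 0.4 in that order (each 0.8 adjusted over 4 ratios), and 2 against 3 libraries cannot give less than 0.2. Without WT replicate 1 the difference turned to -0.47 for Kif3b to Kif3a and to 0.06 for Kif3c to Kif3b, and that of Kif3c to Kif3a turned to 0.30 without WT replicate 2 and to 0.16 without KO replicate 1. Kif17 entered no ratio, having no reads.

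**Figure D4:**
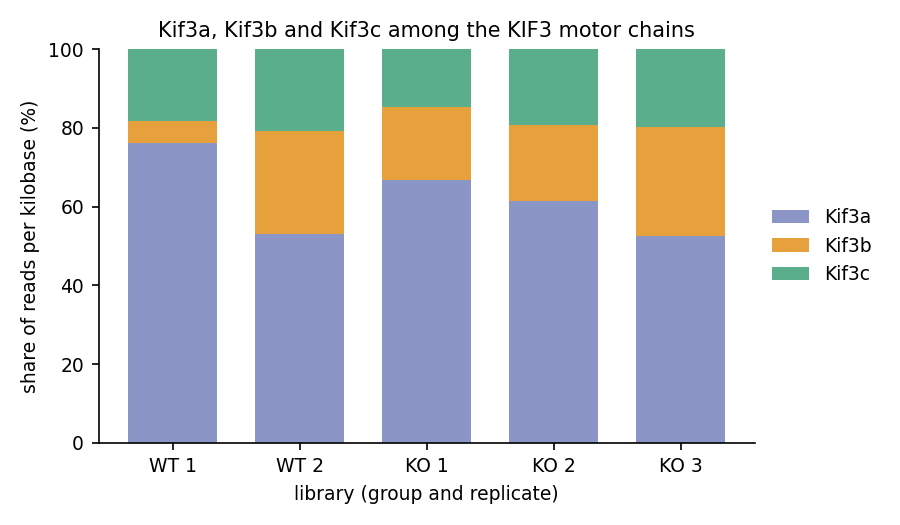
Share of Kif3a, Kif3b and Kif3c in the sum of their reads per kilobase, in percent, as stacked bars for each library with no error bars. Lengths are those of the longest transcript, which for Kif3c includes bases shared with antisense genes. Kif3a takes between 52.6 and 76.1%, and the Kif3b band is narrowest in WT replicate 1, at 5.56%, against 18.6 to 27.6% in the other libraries.

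Genes of the IFT train that kinesin-2 pulls are given next, as counts beside the 13.5% and 11.1% of all genes so placed. Of 18 IFT-B genes tested, 1 (Ift80) had every KO library above both WT libraries and 2 (Ift22 and Ift88) had every KO library below, and 0 passed. Their median log2 fold change was -0.06, beside -0.01 for all genes and 0.71 for the 4 kinesin-2 genes. It turned to 0.15 with scaling by total counts, 0.38 without WT replicate 1, 0.04 without KO replicate 2 and 0.16 with the length trend removed, which left the kinesin-2 median at 0.48. Ttc30b, which encodes an IFT-B subunit with near-identical paralogs, had 56.3 and 31.4 CPM in the WT libraries against 40.0, 8.99 and 9.42 in the KO ones. Among 6 IFT-A genes, of the complex for the way back, 0 were apart in either direction (median -0.32, or -0.67 with the length trend removed), and the 2 with the smallest p were Ttc21b (log2 fold change -1.69, SE 1.57) and Wdr35 (0.65, SE 0.62). That median turned to 0.22 without WT replicate 1.

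Dynein-2 is the motor for the way back. Of its 11 genes tested 0 passed, 2 had every KO library above both WT libraries and 5 had every KO library below, with a median of -0.45. That median was -0.10 with the length trend removed and turned to 0.19 without WT replicate 1, where that of all genes was 0.15. Wdr60, an intermediate chain, had 0.190 and 0.936 CPM in the WT libraries against 7.20, 5.28 and 2.50 in the KO ones, and Dync2h1, the heavy chain, was the other gene placed above. Dynlt1a, a light chain shared with cytoplasmic dynein and with near-identical copies, had 45.0 and 21.6 CPM in the WT libraries against 20.6, 14.9 and 9.25 in the KO ones. Of 9 ciliary kinases and small GTPases tested 0 passed, with 2 above, 1 below and a median of 0.01, which changed sign with the scaling (-0.06 with DESeq2 size factors). Mok, a kinase, had 0 and 0.173 CPM in the WT libraries against 1.90, 3.70 and 3.64 in the KO ones, and Rab8a, a GTPase of membrane traffic to the cilium, had 170 and 205 CPM in the WT libraries against 127, 135 and 140 in the KO ones.

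Among other kinesin families 0 genes passed. All 7 kinesin-3 genes, mostly motors of vesicles and organelles, had a positive fold change, where 49.4% of all genes did. Of these, 4 had every KO library above both WT libraries, where 13.5% of all genes tested did. The median was 1.65, or 1.04 with the length trend removed, and Kif1b then stood at -0.20. Kif16b, an endosome motor, had 5.97 and 8.34 CPM in the WT libraries against 24.7, 17.9 and 24.8 in the KO ones. Its log2 fold change was 1.65 (SE 0.55), or 1.04 with the length trend removed. Kif1c, another vesicle motor, had a log2 fold change of 1.49 (SE 0.66), or 0.80 with the length trend removed.

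Of all genes tested, 13.5% had every KO library above both WT libraries and 11.1% had every KO library below. Kinesin-1, the main motor of general cargo, had 3 of 7 genes above and a median of 0.43, also with Kif5a at its bound. That median was 1.03 without WT replicate 2 and 0.11 without KO replicate 3. Kif5b, its widely expressed heavy chain, had 151 and 108 CPM in the WT libraries against 321, 419 and 190 in the KO ones. Its log2 fold change was 1.26 (SE 0.45), or 0.64 with the length trend removed. Kif5a, a neuronal heavy chain, had reads in KO alone, at least 122-fold above the floor of 3 reads over the WT group. It had 9.81 CPM in KO replicate 2 and 0.0316 and 0.573 CPM in KO replicates 1 and 3. Its value in KO replicate 1 lay below the floor of WT replicate 1, 0.114 CPM. The place of Kif5a among the 3 genes above thus lies within counting error. The 10 neuron markers summed to 134.7 CPM in KO replicate 2 and to 52.8 to 92.2 in the other libraries, and their part in the level of Kif5a was not tested. Of 12 mitotic kinesins 1 was above (median 0.53, or 0.08 without WT replicate 2), namely Kif20b, at 1.90 and 0.277 CPM in the WT libraries against 20.5, 26.7 and 7.94 in the KO ones. Kif23, a kinesin of the dividing cell's midzone, had 23.9 and 13.7 CPM in the WT libraries against 49.2, 39.8 and 15.4 in the KO ones. Markers of cycling cells summed to 1038 and 360 CPM in the WT libraries against 749, 583 and 176 in the KO ones, with 0 of 6 above and 0 below, and their part was not tested. Of 6 genes in a list of other ciliary kinesins, which also holds the kinase gene Stk36, 1 was above (median 0.27, or 1.26 without WT replicate 1). This was Kif2a, a microtubule depolymeriser (log2 fold change 0.83, SE 0.59, or 0.38 with the length trend removed). Kif7, a Hedgehog regulator at the ciliary tip, had 2.51 and 1.14 CPM in the WT libraries against 1.33, 3.66 and 5.24 in the KO ones.

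Cargoes and partners of kinesin-2 outside the cilium had 14 genes tested, of which 0 passed. Of these, 5 were above (13.5% of all genes) and 0 were below (11.1% of all genes). The median was 0.42, with 0.23 when WT replicate 1 was left out and 0.77 when WT replicate 2 was. Apc, a tumour suppressor that binds KAP3, had 3.62 and 7.66 CPM in the WT libraries against 45.0, 54.3 and 28.9 in the KO ones. Its log2 fold change was 2.92 (SE 0.60, adjusted p = 0.810, edgeR quasi-likelihood test), and 1.55 with the length trend removed. Smc3, a cohesin subunit that binds KAP3, had 30.2 and 23.9 CPM in the WT libraries against 54.9, 69.7 and 44.1 in the KO ones. The other genes placed above were Ctnnb1 (beta-catenin), Mmp14 (a membrane protease carried by KIF3 motors) and Lin7c (of the scaffold that KIF17 carries), with log2 fold changes of 0.46, 0.93 and 0.23. Grin2b, a receptor subunit carried by KIF17 in neurons, had too few reads to be tested.

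**Figure D5:**
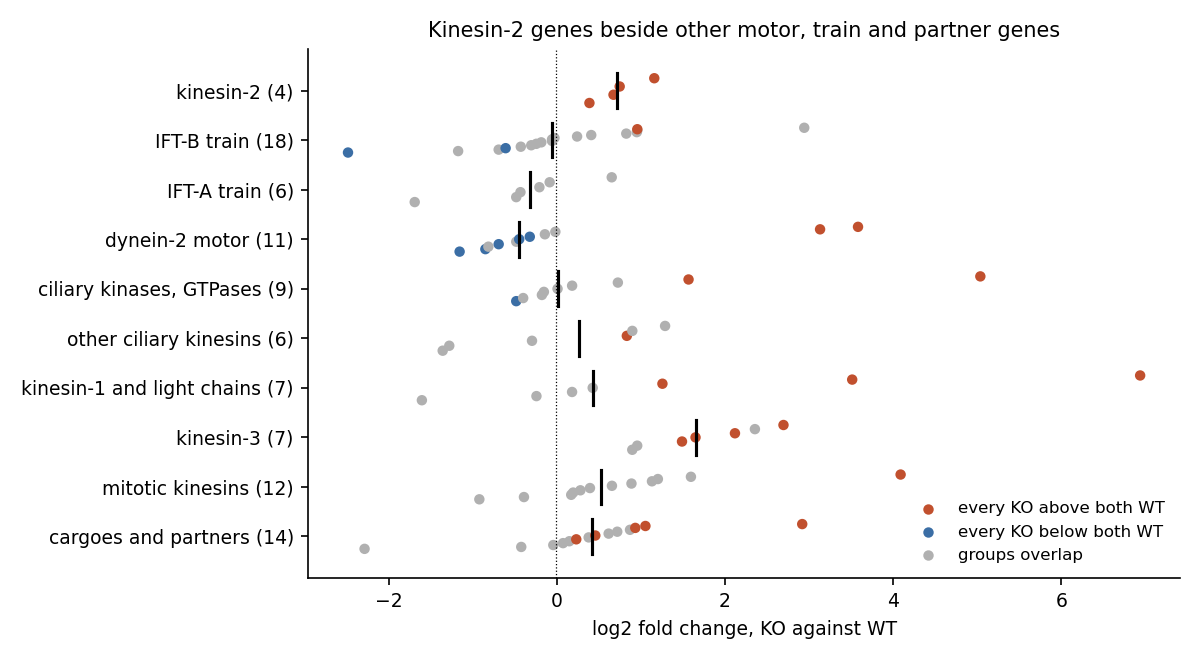
Log2 fold change of KO against WT for each tested gene of 10 lists, with the number tested in brackets. Points are genes, coloured by whether every KO library lies above (red) or below (blue) both WT libraries, short black lines are list medians, the dotted line is the median of all genes, and Kif5a is drawn at its lower bound. All 4 kinesin-2 points are red and lie between 0.39 and 1.16.

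Genes with the pattern nearest to each kinesin-2 gene were found by the root mean square distance of centred log2 CPM over the 5 libraries, among 12897 genes. This is a description of 5 libraries, and the distance carries no test. Nearest to Kif3a were Ddx21 (0.07), Recql5 (0.08) and Ddx10 (0.09), where the median distance of all genes was 0.81. All 3 encode helicases of RNA or DNA. Nearest to Kif3b were Map3k8 (0.09), a kinase, Hyal1 (0.16), a hyaluronidase, and Eng (0.17), the endothelial co-receptor endoglin, against a median of 1.34. Eng was at 48.2 CPM in WT replicate 1, at 320 in WT replicate 2 and at 259, 346 and 411 in KO. The centred log2 CPM of Kif3b was -2.23 in WT replicate 1 and between 0.27 and 0.90 in the other libraries. Likeness to Kif3b thus rests mainly on WT replicate 1.

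Nearest to Kif3c were Med24 (0.05), Extl3 (0.06) and Jup (0.06), with a median of 0.80. Med24 encodes a Mediator subunit, Extl3 an enzyme of heparan sulphate synthesis and Jup plakoglobin. Nearest to Kifap3 were Itgb1 (0.05), the integrin beta chain, Pcyt1a (0.07), of phosphatidylcholine synthesis, and Uba1 (0.07), the ubiquitin-activating enzyme, with a median of 0.74. Itgb1 had 1001 and 847 CPM in the WT libraries against 1108, 1054 and 1356 in the KO ones. The kinesin-2 genes were not each other's nearest: the distance was 0.31 between Kif3c and Kifap3, 0.33 between Kif3a and Kif3c, 0.36 between Kif3a and Kifap3, and 0.81 to 1.05 from Kif3b to the other genes.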

How the data were processed

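RNA was extracted on RNeasy columns with DNase treatment, and libraries were made with SMART-Seq v4, a full-length kit without strand marks, per the labels' protocols. The deposited table holds raw counts per gene, which differ in total between libraries. The submitters' processing notes name FastQC 0.11.5, cutadapt 1.11, HTSeq and DESeq2, with mm10 and GRCm38 as builds. Aligner and annotation were not given in the sources used here.

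All 24062 genes entered edgeR 4.0.16 (R 4.3.3): filterByExpr (14244 of 17148 genes with a read), TMM (factors 0.837 to 1.07), and a robust two-sided quasi-likelihood F test with Benjamini-Hochberg adjustment, called under 0.05. limma 3.58.1 (voom) and DESeq2 1.42.0 were alternatives. SE and intervals are approximate, from the F statistic. Ratios used 0.5 added reads. Lengths, coordinates and overlaps came from GENCODE M21 (GRCm38), which matched 22750 symbols, and promoters from RefSeq (GRCm38.p6). Counting intervals are at 95% and, like the floor of 3 reads, cover counting error only, since amplified reads are not independent molecules. Trends with the length of the longest transcript were removed by loess offsets with a median of 0 per library. Replicates are numbered in order of deposit. The authors' statistics columns were not used.

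The members, gene lists and tests were chosen with earlier results of these data known. Named genes were Ift88, the members, in each list the genes that passed or else the 2 with the smallest p, and the 3 nearest patterns per member among genes with a mean of at least 20 scaled reads. Other genes in counts of 5 or fewer were named after their values were seen.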

Additional observations from a re-analysis of the deposited data

How the results depend on the processing

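The median biological coefficient of variation was 62.8% over 5 libraries, and the 95% intervals of all 4 fold changes spanned 0. Over 16 alternatives each, the log2 fold change was between 0.61 and 0.89 for Kif3a, 0.36 and 2.92 for Kif3b, -0.030 and 0.93 for Kif3c, and 0.16 and 0.52 for Kifap3, and adjusted p was never under 0.05. That of Kif3c turned to -0.030 with the trend by longest transcript removed, and the cause was not tested.

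Leaving out 1 library gave ranges of 0.61 to 0.89 for Kif3a, 0.36 to 2.92 for Kif3b, 0.42 to 0.93 for Kif3c and 0.25 to 0.45 for Kifap3. In the libraries whose titles share a code (WT replicate 1, KO replicates 1 and 2) the values were 0.78, 2.78, 0.92 and 0.16, where the median of all genes was 0.23, so that Kifap3 stood at -0.07 relative to it. DESeq2 with a prior gave 0.74 for Kif3b. Fits with 1 WT library hold no spread between WT libraries. Without 1 library the ratio differences ranged from -0.47 to 2.28 for Kif3b to Kif3a (turned without WT replicate 1), from -0.40 to 0.30 for Kif3c to Kif3a (turned to 0.30 without WT replicate 2 and 0.16 without KO replicate 1), from -1.98 to 0.065 for Kif3c to Kif3b and from -0.64 to -0.18 for Kifap3 to Kif3a. The number of genes called, 0, became 50 with the likelihood-ratio test, 381 with DESeq2, 179 with its prior and between 0 and 245 without 1 library (245 without WT replicate 1). Scaling by total counts moved the median of all genes to 0.10, and relative to it the genes stood at 0.78, 1.06, 0.66 and 0.42. The median of the IFT-B list was 0.38 without WT replicate 1, that of dynein-2 0.19 and that of IFT-A 0.22, where that of all genes was 0.15. Among the 3 libraries of the shared code, medians were 0.20 for IFT-A, 0.37 for kinases and GTPases, 1.28 for kinesin-1 and 1.09 for cargoes and partners. No paired analysis was run, because the replicate numbers were given in order of deposit and pair no libraries. WT replicate 2 and KO replicate 3 each have a title code of their own, so a block on the code would draw its difference from the same 3 libraries as the fit to the shared code.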
